A study of Mus musculus with 2 samples.

Results

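Dendritic cells of the dermis were drawn from 2 single-cell RNA-seq libraries of mouse ear skin, 1 from healthy controls and 1 from mice with allergic contact dermatitis (ACD). All mice were of the outbred ICR strain, labelled 7 to 8 weeks old, and carried no engineered allele. ACD mice had been sensitized with 1-fluoro-2,4-dinitrobenzene (DNFB), a skin-sensitizing hapten, on the back and challenged with it on the ears. The ears were digested with collagenase D and DNase1, dead cells were removed, and no cell type was sorted. The labels give no number of mice per library.

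A cell was taken as a dermal dendritic cell by its unique molecular identifiers (UMIs), each of which stands for 1 captured RNA molecule. It needed at least 20 UMIs of Cd74 and at least 2 over Flt3, Zbtb46, Cd209a, Xcr1 and Fscn1. It was allowed at most 1 UMI of Cd207, which marks Langerhans cells, at most 2 over the complement genes C1qa, C1qb and C1qc, which mark macrophages, and none of Cd79a, Ms4a1 or Siglech. This gate found 12 of the 12213 control cells kept and 145 of the 11665 ACD cells kept. Members with at least 3 UMIs over Fscn1 and Ccl22, and more than over Cd209a and Xcr1, are called mature cells here. The others are Xcr1 cells or Cd209a cells where they held that gene, by whichever had more UMIs, and Cd209a cells at equal counts. Cell classes therefore rest on the same counts as the levels reported for them, and the genes of the gate are given as a description.

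Dendritic cells take up antigen in the skin, load its peptides onto MHC class II molecules and show them to T cells. Type 1 conventional dendritic cells carry the chemokine receptor Xcr1, depend on the transcription factors Irf8 and Batf3 and are known for presenting taken-up antigen to CD8+ T cells. Type 2 cells carry C-type lectins such as Cd209a, Clec10a and Mgl2 and mainly address CD4+ T cells. Maturing cells of either type gain Ccr7, the receptor that leads them to lymph nodes, the actin-bundling protein Fscn1, and the chemokines Ccl22 and Ccl17, which attract Ccr4-bearing T cells.

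The deposited control library held 12895 barcodes with 99037698 UMIs and the ACD library 13163 barcodes with 126566870 UMIs, and the cells kept had medians of 6850 and 7447 UMIs. The libraries shared 50 barcodes, and 0 of them were shared among members. With 1 library per condition no difference between conditions has a replicate check, so no test was run and no p-value is given. Levels are UMI sums of a group of cells per 1000000 UMIs of that group. The 95% intervals given beside values are exact (Poisson for UMI sums, conditional binomial for ratios of sums, Clopper-Pearson for shares of cells) and describe no more than counting error.

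The label of the gate was first checked against genes that all leukocytes use. Most ACD members lacked these genes. A member was called leukocyte-positive if it had at least 10 UMIs over 11 leukocyte genes, such as the phosphatase Ptprc (CD45) and the adaptor Tyrobp, and more of these than of 18 stromal genes, such as Col1a2 and Dcn. This split was added after the values had been seen. By this measure 8 of the 12 control members were leukocyte-positive (66.7%, 34.9 to 90.1). Of the 145 ACD members 56 were (38.6%, 30.7 to 47.1).

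The members with fewer than 10 leukocyte UMIs and a stromal majority numbered 2 in control and 81 in ACD (55.9% of ACD members, 47.4 to 64.1). The ACD cells among them held 0 to 3 leukocyte UMIs (median 0) and 13 to 1796 stromal UMIs (median 712). They passed the gate with Cd74 at 20 to 101 UMIs (median 31) and, in 80 of 81 cells, with Fscn1 at a median of 2 and at most 6 UMIs. Flt3, Cd209a, Xcr1 and Ccl22 were all at 0 UMIs in them, and Ptprc had 1 UMI. The genes that led them were Ccl21a, Igfbp5, Ctgf and Mgp. Fscn1 was not limited to leukocytes in these libraries. Among all cells with at most 3 leukocyte UMIs its level was 87.2 in control and 88.9 in ACD, whereas the level of Cd74 in those cells was 3.47 in control and 298 in ACD. Another 2 control and 8 ACD members held both kinds of genes in number and were set apart.

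**Figure D1:**
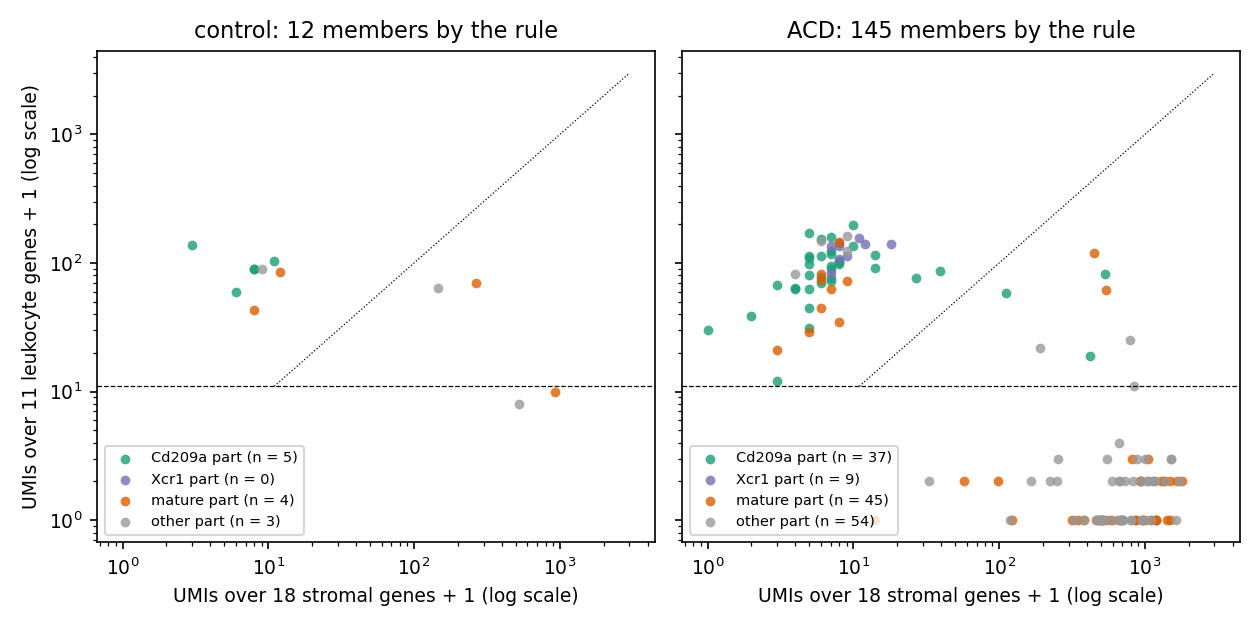
Each point is 1 member of the gate, with its UMIs over 18 stromal genes plotted against its UMIs over 11 leukocyte genes (both plus 1, log axes), in control (left) and ACD (right). Colors give the Cd209a, Xcr1, mature and other cells, the dashed line marks 10 leukocyte UMIs and the dotted line marks equal sums. In ACD, 81 points lie at 0 to 3 leukocyte UMIs and 13 to 1796 stromal UMIs, apart from the 56 leukocyte-positive members.

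The 4 classes differed in how far the gate held. In ACD, 34 of 37 Cd209a cells and 9 of 9 Xcr1 cells were leukocyte-positive. Of the 45 mature cells, 9 were leukocyte-positive and 34 were stromal, and of the 54 cells outside the named classes, 4 were leukocyte-positive and 47 were stromal. In control, 5 of 5 Cd209a cells, 2 of 4 mature cells and 1 of 3 other cells were leukocyte-positive, and there was no Xcr1 cell. Near the Cd74 limit the ACD library held 21 members with 20 to 24 UMIs, of which 1 was leukocyte-positive, and 36 cells just outside with 15 to 19 UMIs, of which 4 were. Near the limit on the marker sum it held 62 members with a sum of 2 (12 leukocyte-positive) and 90 cells with a sum of 1 (12 leukocyte-positive), against 4 members (2) and 8 cells (6) in control. What follows describes the leukocyte-positive members, 8 in control and 56 in ACD, and calls them dendritic cells. The name follows the gate, and monocyte-like cells were not told apart from dendritic cells. Of the 34 ACD Cd209a cells, 18 had Flt3 and 12 had Zbtb46, whereas 26 had Cd14 and 22 had Plac8.

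Dendritic cells were a larger share of the ACD library. Their share was 0.0655% (0.0283 to 0.129) among control cells and 0.480% (0.363 to 0.623) among ACD cells. For the whole gate it was 0.0983% (0.0508 to 0.172) and 1.24% (1.05 to 1.46). Leukocytes were more frequent in the same library, since leukocyte-positive cells of every kind were 7.09% (866 cells) of control and 34.2% (3985 cells) of ACD. More dendritic cells per skin area and fewer other cells recovered cannot be told apart from shares. The dendritic cells held 92434 UMIs in control (6980 to 15542 per cell) and 740900 in ACD (2397 to 23420 per cell).

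Cd209a cells were the most numerous class in both libraries. They were 5 of 8 control (62.5%, 24.5 to 91.5) and 34 of 56 ACD dendritic cells (60.7%, 46.8 to 73.5). Mature cells were 2 of the 8 control cells (interval 3.19 to 65.1%) and, at 9 cells, 16.1% of the ACD cells (7.62 to 28.3), and these intervals overlap widely. Xcr1 cells were 9 of 56 in ACD (16.1%, 7.62 to 28.3) and 0 of 8 in control, which allows a share of up to 36.9% by the exact interval. The remaining 1 control and 4 ACD cells had neither Xcr1, Cd209a nor enough Fscn1 and Ccl22. Of the 56 ACD cells, 7 carried 2 or more UMIs over the T cell genes Cd3e, Cd3d and Cd3g (5 Cd209a cells, 1 Xcr1 cell and 1 other), against 0 of 8 in control, and no doublet was removed.

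The genes of the gate had the following levels. Cd74, the invariant chain that escorts MHC class II molecules, stood at 31049 in control and 20366 in ACD dendritic cells, with 25 to 638 UMIs per control cell (median 337.5) and 23 to 744 per ACD cell (median 247). Flt3, the receptor for the growth factor that maintains dendritic cells, had levels of 119 and 72.9. Cd209a had levels of 108 and 213. Fscn1 had levels of 779 and 324, and Ccl22 768 and 395. The control value of Ccl22 came largely from 1 mature cell with 69 of the 71 UMIs. The log2 ratio of Ccl22, with 10 UMIs per 1000000 added to each level, was -0.94 with that cell and 3.56 without it.

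Markers of other cell types in the dendritic cells were low, with the exception of monocyte genes. The summed level of 10 monocyte markers was 5334 (4873 to 5826) in control and 4381 (4232 to 4535) in ACD. Langerhans cell markers summed to 206 and 208. For 13 T and NK cell markers the sum was 108 (range per cell 0 to 579, 11 genes at 0) in control and 301 (0 to 3473, all genes seen) in ACD. The 13 macrophage markers summed to 303 and 217, the 7 fibroblast markers to 389 and 275, and the 7 neutrophil markers to 10.8 and 22.9. Keratinocyte markers were at 0 in control and at 36.4 in ACD, and mast cell and basophil markers at 0 and 2.70.

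Inside the ACD library each class carried the marker list of its name. The summed level of 13 type 1 markers was 4143 (3822 to 4485) in Xcr1 cells, 610.1 (537 to 691) in Cd209a cells and 1336 (1129 to 1571) in mature cells. Type 2 markers summed to 872 (728 to 1036), 3139 (2969 to 3316) and 409 (298 to 547) in the same order. Mature markers summed to 1305 (1127 to 1502), 1916 (1784 to 2056) and 17983 (17199 to 18793). These sums include the genes that chose the classes (Xcr1, Cd209a, Fscn1 and Ccl22), and cells of 1 library are not replicates, so they describe that library.

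**Figure D2:**
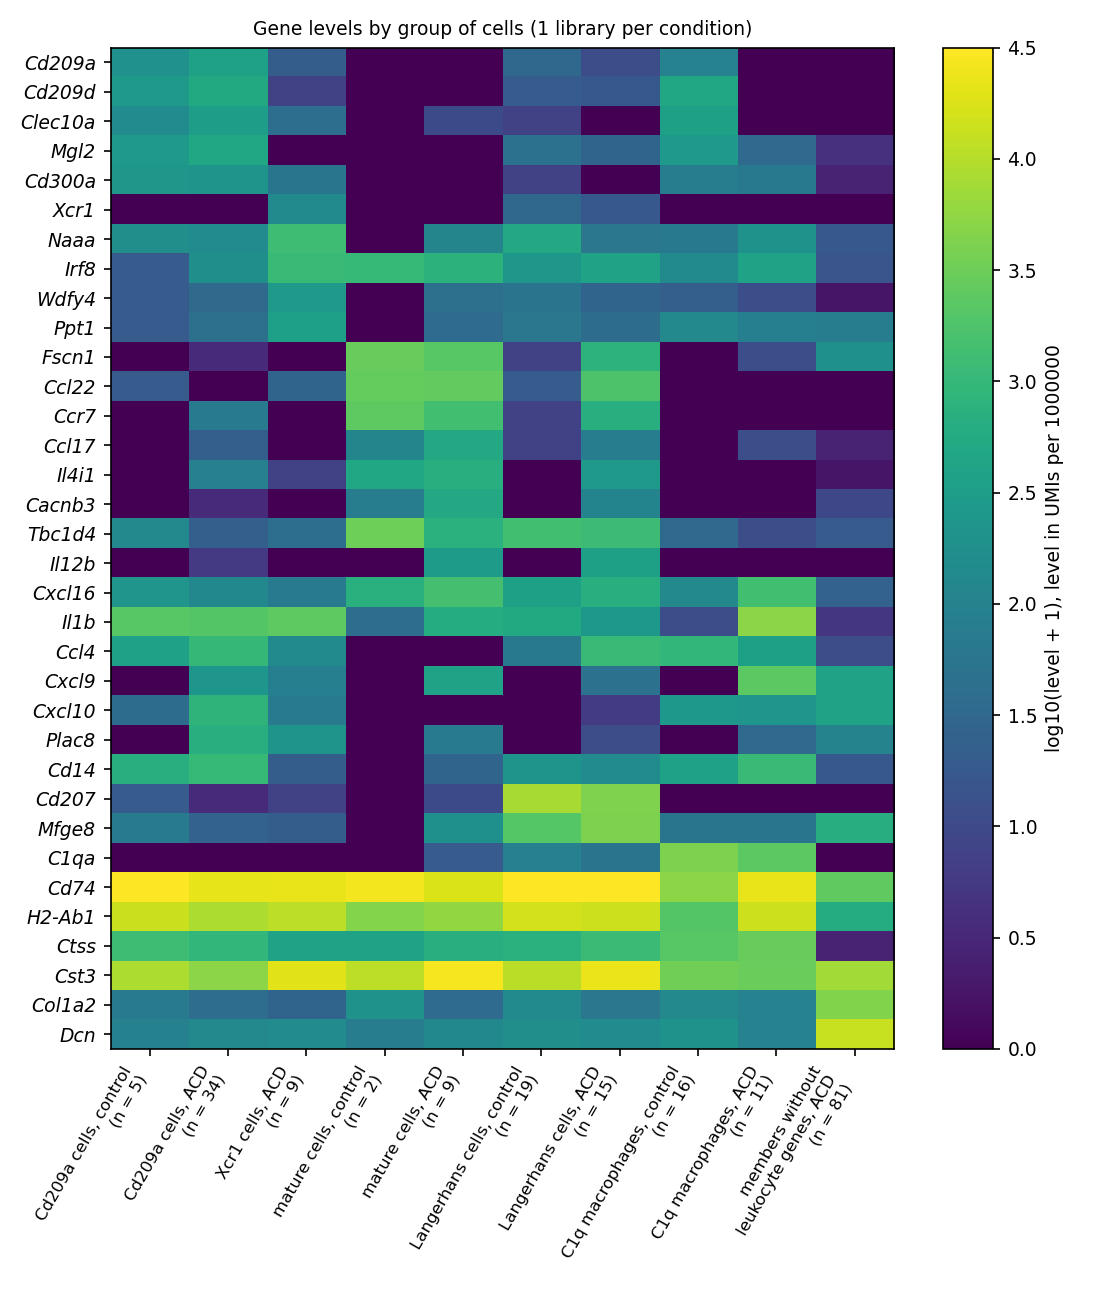
Heat map of levels, as log10 of UMIs per 1000000 plus 1, for 34 genes (rows) in 10 groups of cells (columns). Cd209a cells, mature cells, Langerhans cells and C1q macrophages are shown for control and ACD. Xcr1 cells and members without leukocyte genes are shown for ACD alone. Xcr1 cells stand out for Naaa and Irf8 (ACD levels 1244 and 1108) and mature cells for Ccl22, Fscn1 and Ccr7 (2609, 2173 and 1355).

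Xcr1 cells had 1 to 4 UMIs of Xcr1 each and together 58.3% of all Xcr1 UMIs of the ACD library (21 of 36). Against Cd209a cells, of 1459 genes with at least 50 UMIs in the pair, 45 were at least 2-fold higher in Xcr1 cells (3.08%) and 115 at least 2-fold lower (7.88%), on a scale with 10 UMIs per 1000000 added to each level. Of 6 measured type 1 markers, 5 were higher and 0 lower. Naaa, an acid amidase, had a level of 148 in Cd209a cells and 1244 in Xcr1 cells and had 5 to 37 UMIs in every one of the 9 cells. Irf8 was at 169.8 and 1108, Id2, another factor that type 1 cells need, at 194 and 1169, and Wdfy4, which serves cross-presentation, at 34.4 and 264. Cst3, the cysteine protease inhibitor cystatin C, was 5201 in Cd209a and 20135 in Xcr1 cells. Batf3 was at 24.6 and 237.

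Xcr1 cells were low in innate receptors and in most chemokines. Of 5 measured pattern recognition receptors 4 were lower than in Cd209a cells, among them the lectins Mgl2 (485 in Cd209a and 0 in Xcr1 cells) and Cd209d (549 and 6.76) and the lipopolysaccharide co-receptor Cd14 (1023 and 20.3). Of 6 chemokines 5 were lower, among them Ccl4, a chemokine that draws monocytes and T cells (991 and 142), and Cxcl10, a ligand of Cxcr3 (834 and 74.3). Il1b was an exception. Its level was 1990.3 in Cd209a cells and 2467 in Xcr1 cells, where 3 of the 9 cells held 79, 105 and 175 of the 365 UMIs.

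Mature cells differed from Cd209a cells in more genes. Of 1340 genes measured in the pair, 130 were at least 2-fold higher in mature cells (9.70%) and 267 at least 2-fold lower (19.9%). Of 17 mature markers outside the gate, 15 were higher and 0 lower. Ccr7 had a level of 68.9 in Cd209a and 1355 in mature cells, Ccl17 22.1 and 527, Cd63, a tetraspanin of late endosomes, 34.4 and 964, and Tbc1d4, which regulates vesicle traffic, 22.1 and 746. Fabp5, a fatty acid carrier, reached 2973 against 177. Ccl5, a T cell-attracting chemokine, reached 1455 against 128 and Cxcl16, the ligand of Cxcr6, 1464 against 123. Relb, an NF-kB subunit tied to maturation, was at 345 against 44.3.

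The MHC class I route was also higher in mature cells, in 6 of 13 measured genes with 0 lower. Psmb8, an immunoproteasome subunit, was at 2818 against 925 in Cd209a cells, Psmb9 at 1009 against 295 and B2m, the light chain of MHC class I, at 4864 against 2155. Other genes were lower in mature cells. Ccl4, Cxcl10, Mgl2, Cd209d and Ptgs2, the inducible cyclooxygenase, had 403, 339, 197, 223 and 252 UMIs in the 34 Cd209a cells and 0 UMIs each in the 9 mature cells. Cd14 was at 1023 and 27.3 and Lyz2, lysozyme, at 1142 and 36.4. All 4 measured pattern recognition receptors and 6 of 7 monocyte markers were lower.

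The 9 mature ACD cells were not alike. Their Ccl22 counts were 5, 50, 5, 117, 2, 1, 6, 89 and 12 UMIs. In the same order Ccr7 had 32, 36, 0, 6, 0, 30, 15, 24 and 6 UMIs. H2-Ab1, an MHC class II chain, had 6, 1, 208, 5, 65, 51, 175, 4 and 125. The 3 cells with the most Ccl22 were thus among the 4 with the fewest H2-Ab1 UMIs. The interleukin 12 subunit Il12b had 34 UMIs in all ACD dendritic cells, of which 32 lay in 1 mature cell, the first of this order. The 2 mature control cells showed a like contrast, with 1 and 69 UMIs of Ccl22, 114 and 3 of H2-Ab1, 25 and 36 of Ccr7, and 2 and 146 of Ccl5.

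**Figure D3:**
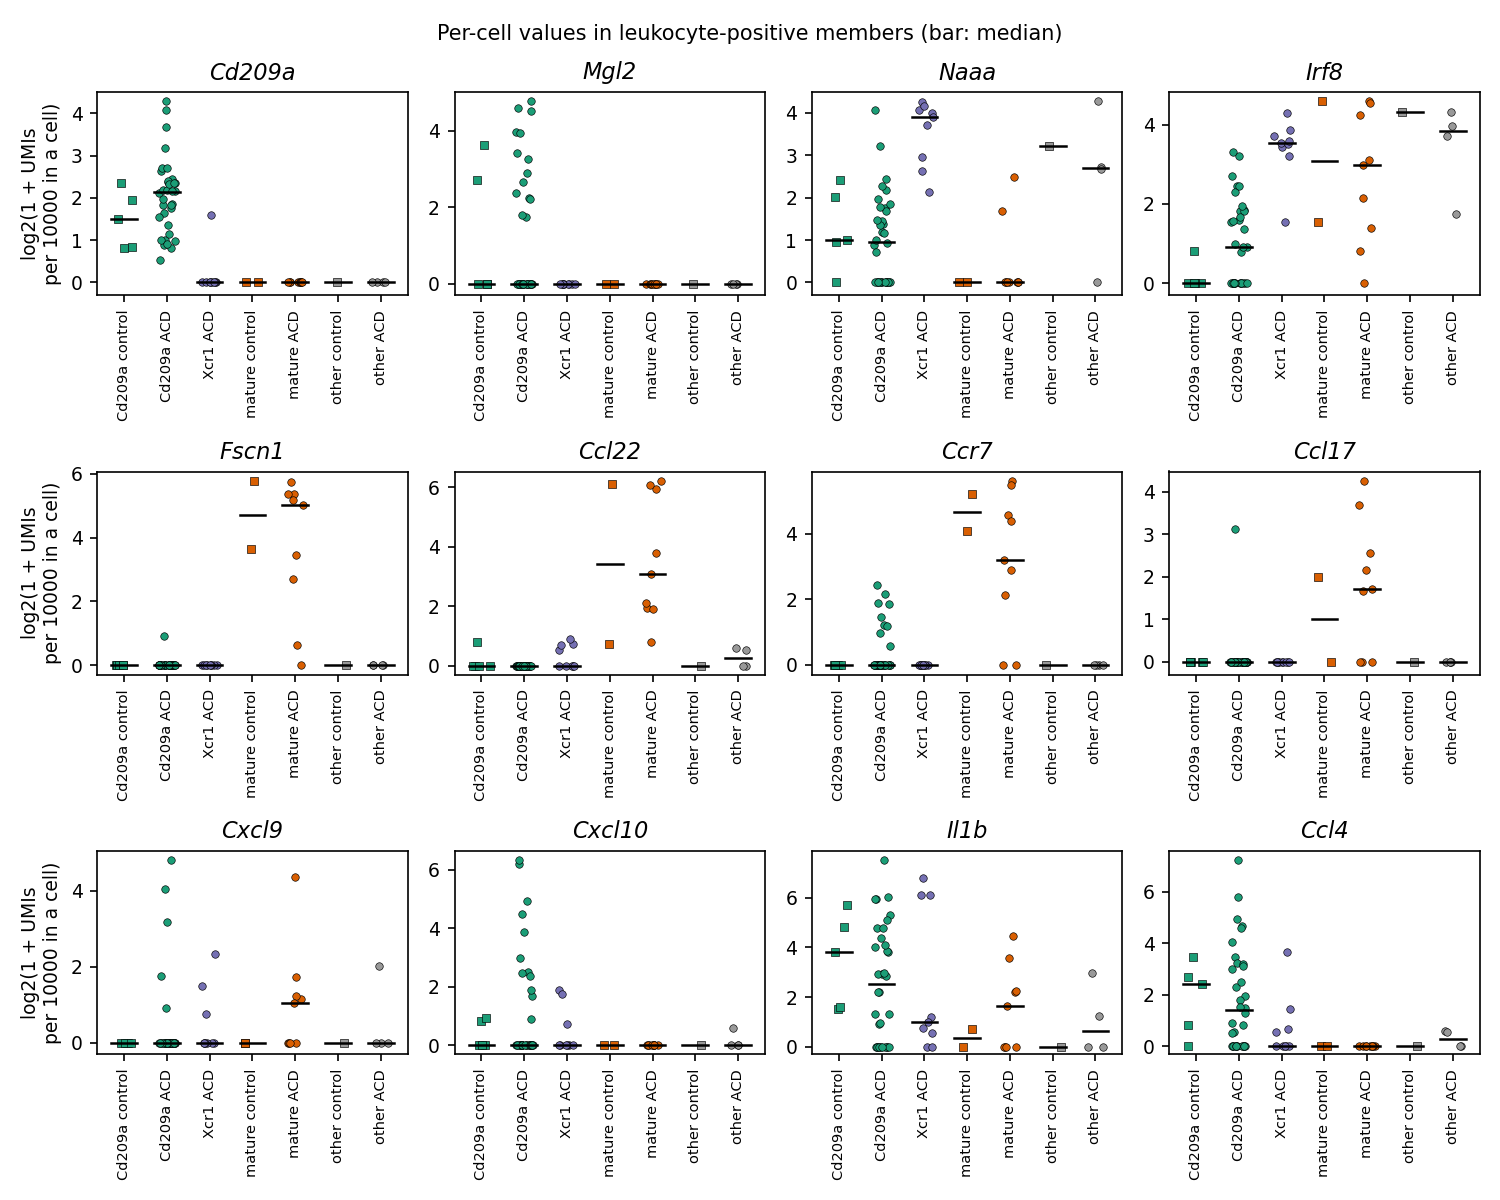
Each point is 1 dendritic cell (squares control, circles ACD), grouped by class, with log2 of 1 plus its UMIs per 10000 UMIs of the cell on the vertical axis for 12 genes, and a bar at the median. Fscn1, Ccl22 and Ccr7 are high in single mature cells, whereas Cxcl10 has points above 0 in 12 ACD Cd209a cells and in 0 mature cells.

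Most UMIs of Ccl22 and Il12b in the ACD library lay in mature and Langerhans cells together. Ccl22 also served to choose the mature cells. For Ccl17, Mgl2 and Clec10a most UMIs lay outside dendritic and Langerhans cells. The 9 mature cells had 287 of the 788 Ccl22 UMIs of all ACD cells kept (36.4%, 33.1 to 39.9), 58 of 224 for Ccl17 (25.9%, 20.3 to 32.1) and 32 of 108 for Il12b (29.6%, 21.2 to 39.2). The 15 ACD Langerhans cells had more of 2 of these, 320 UMIs of Ccl22 (40.6%, 37.2 to 44.1) and 68 of Il12b (63.0%, 53.1 to 72.1). The 34 Cd209a cells had 197 of 448 UMIs of Mgl2 (44.0%, 39.3 to 48.7) and 128 of 474 of Clec10a (27.0%, 23.1 to 31.2). For inflammatory genes with wider use the dendritic cells counted for less, 14.7% of Il1b (13.9 to 15.5), 2.38% of Cxcl10 (2.14 to 2.64) and 1.12% of Cxcl9 (0.954 to 1.31).

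Between ACD and control, 2116 genes had at least 50 UMIs in the dendritic cells. Of these 208 were at least 2-fold higher in ACD (9.83%) and 67 at least 2-fold lower (3.17%), on the scale with 10 UMIs per 1000000 added, which understates the change of low genes. The median log2 ratio of all genes was 0.13. With median-of-ratios size factors the counts were 174 higher and 100 lower. The minimum of 50 UMIs is met mostly by the ACD side, with 740900 UMIs against 92434, so that genes with few ACD UMIs were rarely measured and the counts of higher and lower genes cannot be set against each other. The control side rests on 8 cells, so a single cell could set a value. The 10 highest genes were Plac8, Il17a, Cxcl9, Cd69, Ly6a, Cxcl10, Hspa1b, Il17f, Hspa1a and Hsd17b12, and the 10 lowest Ccl5, Tbc1d4, Eno3, Trim25, Samsn1, Trf, Jdp2, H2-M2, Tnfaip2 and Avpi1. Of these 10 lowest, 5 were within 2-fold once the highest control cell of the gene was left out. With 10 added, Eno3 moved from -2.33 to -0.15, Jdp2 from -1.83 to -0.10, H2-M2 from -1.79 to -0.44, Tnfaip2 from -1.78 to -0.22 and Ccl5 from -2.77 to -0.80.

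Genes induced by interferon gamma (IFNγ) had the largest share of higher genes among the lists with at least 4 measured genes. Of 11 measured genes, 8 were higher in ACD and 0 lower, with a median log2 ratio of 1.99 against 0.13 over all genes (2.29 without added UMIs and with a gene at 0 taken at its bound). Promoters of IFNγ-induced genes are known for GAS elements (written TTCNNNGAA) and, bound by interferon regulatory factors, for interferon-stimulated response elements (ISRE, searched as 2 copies of TTTC, or of GAAA, with 2 bases between them). For 7 of the 8 higher genes the 250 bases before a start site were read from RefSeq on GRCm38.p6, the build that mm10 stands for. Of these 7 genes, 2 held a GAS match and 3 an ISRE match on either strand, against 7.02% and 2.98% of 32851 promoters. The counts are per gene over any of its start sites and the shares are per promoter, so their units differ. A match describes the letters only and is no evidence of binding. Of these promoters 3 are shown, 2 with an ISRE match and 1 with a GAS match, with the match in capitals, none holding a match of both kinds, and each written 5′ to 3′ on the strand of its gene. They lie at chr5:92348890-92349139 on the minus strand (Cxcl10, match beginning 213 bases before the start), chr3:142620413-142620662 on the plus strand (Gbp2, 59 bases before) and chr11:53769764-53770013 on the plus strand (Irf1, 90 bases before).
Cxcl10: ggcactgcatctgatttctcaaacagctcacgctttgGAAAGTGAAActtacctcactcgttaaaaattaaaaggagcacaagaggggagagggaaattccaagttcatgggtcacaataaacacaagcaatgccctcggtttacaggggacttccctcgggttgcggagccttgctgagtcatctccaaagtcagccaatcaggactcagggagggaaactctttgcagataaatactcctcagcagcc
Gbp2: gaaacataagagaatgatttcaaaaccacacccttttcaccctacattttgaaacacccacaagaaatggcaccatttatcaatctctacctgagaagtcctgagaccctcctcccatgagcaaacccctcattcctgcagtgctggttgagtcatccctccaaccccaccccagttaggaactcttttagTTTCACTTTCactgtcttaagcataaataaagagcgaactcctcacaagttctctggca
Irf1: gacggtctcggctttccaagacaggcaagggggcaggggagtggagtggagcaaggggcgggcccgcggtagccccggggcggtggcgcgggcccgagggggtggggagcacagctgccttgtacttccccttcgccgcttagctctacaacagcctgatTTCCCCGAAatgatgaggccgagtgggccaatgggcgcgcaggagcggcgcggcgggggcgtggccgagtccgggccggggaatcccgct

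The 3 genes whose promoters are shown all had higher levels in ACD. Cxcl10 had 2 UMIs in 2 control cells and 351 in 16 ACD cells, a level of 21.6 against 474 and a log2 ratio of 4.45 (2.59 to 7.50). Of the ACD UMIs 339 lay in Cd209a cells and none in mature cells, and the highest cell held 124. Gbp2, a guanylate-binding GTPase of host defense, had 2 UMIs in control and 139 in 34 ACD cells, a log2 ratio of 3.12 (1.24 to 6.18). Its ACD level was nearly even over the classes, at 199 in Cd209a, 182 in Xcr1 and 191 in mature cells. Irf1, a transcription factor of the interferon response, had 7 UMIs in control and 274 in 45 ACD cells, a level of 75.7 against 369.8 and a log2 ratio of 2.29 (1.23 to 3.62).

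Cxcl9, the other Cxcr3 ligand, had 0 UMIs in control and 156 in 14 ACD cells. With 3 UMIs taken for the control cells together it was 6.49-fold higher. The exact interval of its log2 ratio began at 2.38. Socs1, a feedback inhibitor of the pathway, had 1 and 54 UMIs, Cd274 (PD-L1) 3 and 75, and Fgl2, a secreted fibrinogen-like protein, 8 and 181. A difference in Cxcl16 was not detectable at this depth, with a log2 ratio of -0.08 (-0.63 to 0.52). Without the 7 cells with Cd3 UMIs, the log2 ratios with 10 added changed from 4.46 to 3.80 for Cxcl9 and from 3.93 to 3.98 for Cxcl10.

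Other cells of the ACD library had these transcripts too. Among cells with at most 3 leukocyte UMIs, the level in control and ACD was 0.724 and 177 for Cxcl9, 16.6 and 182 for Cxcl10 and 11.3 and 142 for Gbp2. The 15 ACD Langerhans cells, taken by Cd74 and Cd207 and leukocyte-positive, had 1 UMI of Cxcl10 and 9 of Cxcl9, at levels of 5.36 and 48.3 and with a median depth of 11524 UMIs against 12682 in the dendritic cells. Whether free RNA took part in the Cxcl9 and Gbp2 values was not tested.

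**Figure D4:**
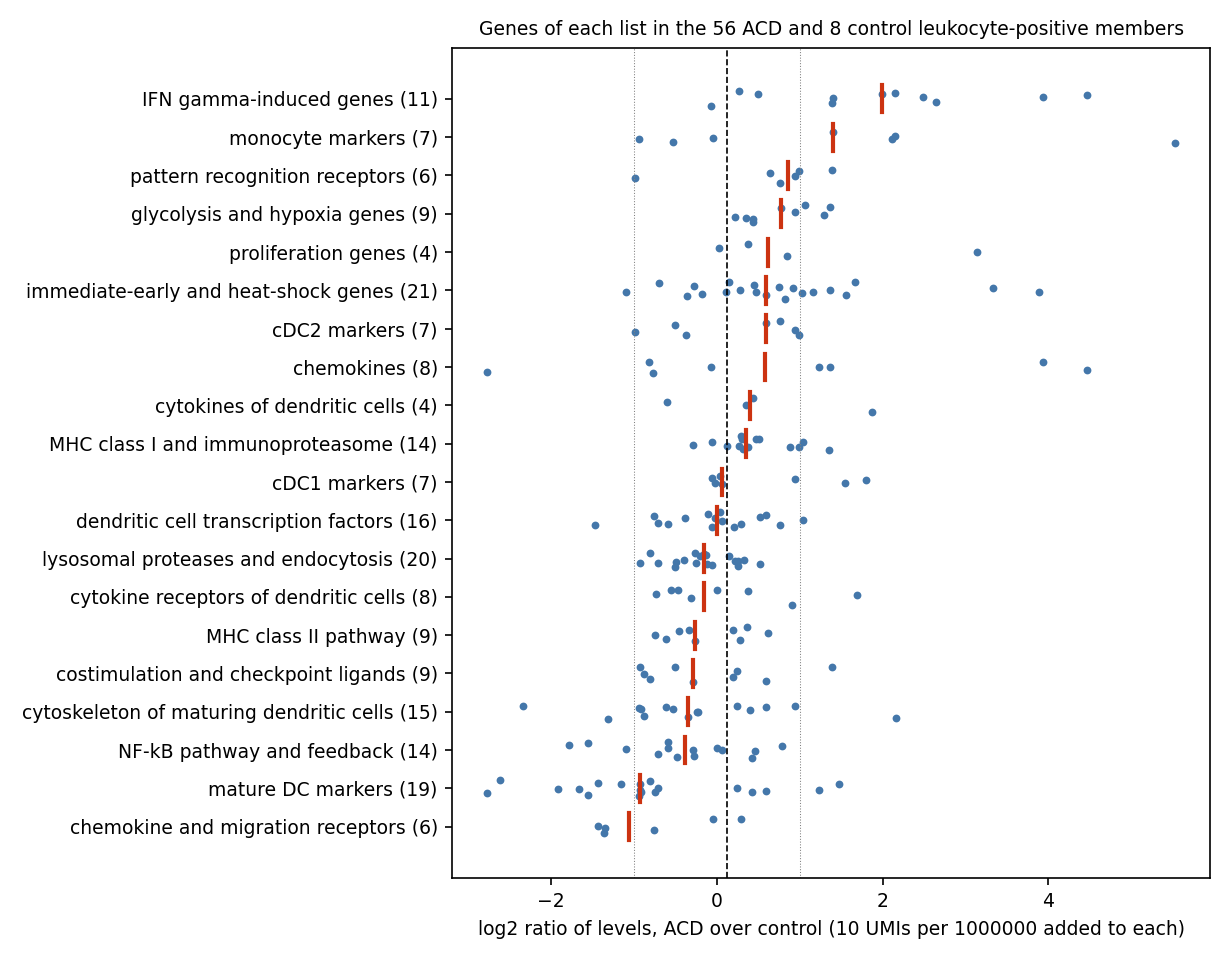
Each dot is 1 measured gene, placed by its log2 ratio of ACD over control in dendritic cells (10 UMIs per 1000000 added) in the row of its gene list, with the list median in red. The dashed line is the median of all genes (0.13) and dotted lines mark a 2-fold change. The IFNγ-induced list has 8 of 11 genes beyond the upper line, and the mature list 7 of 19 below the lower one.

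Antigen presentation genes showed smaller differences. None of 9 MHC class II genes differed 2-fold, with a median log2 ratio of -0.26. H2-Ab1 had levels of 10894 and 8652, a log2 ratio of -0.33 (-0.43 to -0.24), and H2-Aa, its partner chain, 11197 and 8167, -0.46 (-0.55 to -0.36). H2-Eb1 was at -0.61 but at 2.24 on the scale with 10 added once the highest control cell, with 82 of 92 UMIs, was left out, so its direction rests on that cell. For MHC class I and the immunoproteasome, 2 of 14 genes were higher and 0 lower, with a median of 0.35. Tap1, which pumps peptides to MHC class I, was at 97.4 and 266 with a log2 ratio of 1.45 (0.50 to 2.60), and Psmb8 at 746 and 1390.2 with 0.90 (0.54 to 1.27).

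Mature genes were lower in ACD taken over all dendritic cells. Of 19 measured outside the gate, 7 were lower (Ccr7, Cd63, Birc2, Ccl5, Nudt17, Samsn1 and Tbc1d4) and 2 higher (Ccl17 and Cacnb3), with a median log2 ratio of -0.92. Without its highest control cell Cd63 moved from -1.66 to -0.43 with 10 added, and for Nudt17 1 cell held 53.8% of the 13 control UMIs. Mature cells were 2 of 8 in control and 9 of 56 in ACD, and with mature cells left out the median was -0.30. Ccr7 had 61 UMIs in 2 control cells and 177 in 16 ACD cells, levels of 659.9 and 239 and a log2 ratio of -1.47 (-1.89 to -1.02). This value turned on few cells, since on the scale with 10 added it was -0.33 without the highest control cell and 2.44 without mature cells. Ccl5 had levels of 2034 and 289, a log2 ratio of -2.82 (-3.11 to -2.53), and 146 of its 188 control UMIs lay in 1 cell, without which the value was -0.80. Tbc1d4, a log2 ratio of -2.69 (-3.11 to -2.27), stayed at -1.64 without its highest control cell.

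Apart from Cd274, costimulatory and NF-kB genes were within 2-fold or lower. Of 9 costimulation and checkpoint genes Cd274 alone was 2-fold higher and none was 2-fold lower. All 3 control UMIs of Cd274 lay in 1 cell. Without that cell its log2 ratio with 10 added moved from 1.39 to 3.48. Cd83, a surface protein that stabilizes MHC class II on mature cells, was at 855 and 445, a log2 ratio of -0.94 (-1.30 to -0.57), with 4 to 14 UMIs in all 8 control cells. Of 14 NF-kB genes 3 were lower (Rel, Tnfaip2 and Birc2) and 0 higher, with a median of -0.39. Rel, the c-Rel subunit, had levels of 638 and 296 and a log2 ratio of -1.11 (-1.53 to -0.67), and with 10 added it moved from -1.09 to -0.95 without its highest control cell. Tnfaip2 moved from -1.78 to -0.22 and Birc2 from -1.55 to -0.93 in the same step, so none of the 3 stayed 2-fold lower. Of 6 chemokine and migration receptors, 3 were lower, Ccr7, Gpr183, an oxysterol receptor that places dendritic cells in lymphoid tissue, and Itga4, an integrin chain. Gpr183 was at 508 and 192, a log2 ratio of -1.41 (-1.89 to -0.90).

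Of 8 chemokines 4 were higher and 1 lower. Besides Cxcl9 and Cxcl10 the higher ones were Ccl4, at 216 and 575 with a log2 ratio of 1.41 (0.76 to 2.14), and Ccl17, at 32.5 and 90.4 with a ratio whose interval includes 0 (1.48, -0.13 to 3.79). The highest ACD cell held 183 of the 426 UMIs of Ccl4, and the value with 10 added was 0.60 without it. Over all cells Il1b was within 2-fold, with levels of 1244 and 1689.8 and a log2 ratio of 0.44 (0.17 to 0.73). In control 1 cell held 65 of the 115 UMIs of Il1b, and without it the value with 10 added was 1.41, over 2-fold. In ACD 1 cell held 286 of the 1252 UMIs, and without that cell the value was 0.10. The size of the Il1b difference thus turned on single cells. Mif, a cytokine stored in many cells, was the higher gene of 4 measured cytokines, at 119 and 463 with a log2 ratio of 1.96 (1.10 to 2.98). Among 8 cytokine receptors Il1r2, a decoy receptor for interleukin 1, was the higher one, with 2 and 68 UMIs. Neither Ifngr1 (-0.73) nor Ifngr2 (-0.55), the chains of the IFNγ receptor, was 2-fold lower, and Ifngr1 was at 0.20 without its highest control cell.

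Of 7 measured monocyte genes, 4 were higher and 0 lower, with a median of 1.40 (1.46 without added UMIs and with Plac8 at its bound). The 4 higher genes had 0 to 13 control UMIs. The summed level of all monocyte markers, given above, was lower in ACD. Plac8 had 0 UMIs in control and 335 in 32 ACD cells, and 280 of these UMIs lay in Cd209a cells. With 3 UMIs taken for the control it was 13.9-fold higher, and the exact interval of its log2 ratio began at 3.49. Its level in ACD cells with at most 3 leukocyte UMIs was 149.9. Ly6c2 had 1 and 59 UMIs, Ms4a4c 1 and 61, and Ms4a6c, from the same family, 13 and 287. Type 2 markers outside the gate had 0 of 7 genes past 2-fold with 10 added, with a median of 0.60. This rested on single control cells, since without the highest one Clec10a moved from 0.99 to 4.26, Cd209d from 0.95 to 2.40 and Mgl2 from 0.77 to 1.78, and all 8 control UMIs of Clec10a lay in 1 cell. Of 7 type 1 markers Ppt1, a lysosomal thioesterase, and Wdfy4 were higher, in a comparison where control held no Xcr1 cell.

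Stress and metabolic genes also differed. Of 21 immediate-early and heat-shock genes 7 were higher and 1 lower, with a median of 0.60. Hspa1a, an inducible HSP70, had 11 UMIs in control and 951 in ACD, a log2 ratio of 3.43 (2.59 to 4.44), and Hspa1b 3 and 458. Jun was at 206 and 626, a log2 ratio of 1.61 (0.95 to 2.35), whereas Fosb was lower, at 292 and 132. Of 9 glycolysis genes 3 were higher (Tpi1, Pfkp and Pgam1) and 0 lower, with a median of 0.78. Fabp5 was at 119 and 566, a log2 ratio of 2.25 (1.39 to 3.26). None of 20 lysosomal genes differed 2-fold, with a median of -0.15.

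The interleukin 17 genes lay in the cells with T cell genes. All 177 UMIs of Il17a in ACD dendritic cells came from 3 of the 7 cells with Cd3 UMIs, 82 of them from 1 cell, and without these cells Il17a and Il17f were at 0. Cd3g had 54 UMIs with them and 1 without them. Cd69 and Ly6a stayed high, with log2 ratios on the scale with 10 added of 4.33 and 4.07 over all cells and 4.08 and 3.91 without them.

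Cd209a cells could be set side by side in both libraries, with 5 cells in control and 34 in ACD. Cxcl10 was at 37.3 and 834, Ccl4 at 373 and 991, and Il1b at 2125 and 1990.3. Cxcl9 had 0 and 94 UMIs and Plac8 0 and 280. Of the lectins, Clec10a was at 149 and 315 and Mgl2 at 261 and 485, with the control UMIs in 1 and 2 cells. H2-Ab1 was at 14038 and 8731. With 5 control cells no count over all genes was made.

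Over the whole gate, with the members lacking leukocyte genes included, the picture was set by those members. Of 5297 genes measured, 763 were at least 2-fold higher in ACD (14.4%) and 250 lower (4.72%). The highest was Ccl21a, a chemokine of lymphatic endothelium and stroma, with 1 UMI in control and 4285 in 18 ACD cells, 38.9% of them in 1 cell. Ccl21a has near-identical copies in the genome, so its counts are uncertain. IFNγ-induced genes were higher in 17 of 21 and lower in 1, with a median of 2.90, and mature markers were lower in 12 of 21 and higher in 1, with a median of -1.37.

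Langerhans cells of the same libraries, 19 in control and 15 in ACD, were the closest comparison. In ACD, of 2352 genes, 222 were at least 2-fold higher in dermal dendritic cells (9.44%) and 133 lower (5.65%). All 4 measured Langerhans markers were lower in dermal cells and 6 of 7 monocyte markers higher. IFNγ-induced genes were higher in 6 of 11 and lower in 1, with a median log2 ratio of 1.41. Gbp2 was at 188 against 37.6 in Langerhans cells, a log2 ratio of 2.32 (1.24 to 3.66). Il1b was at 1689.8 against 252, a log2 ratio of 2.74 (2.32 to 3.20).

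Langerhans cells of ACD carried more of the maturation genes than dermal cells as a whole. Their levels of Ccl22, Ccr7 and Il12b were 1717, 676 and 365 against 395, 239 and 45.9 in dermal cells, with intervals of the log2 ratio from -2.35 to -1.88, from -1.84 to -1.16 and from -3.63 to -2.38. In control Langerhans cells Ccl22 and Ccr7 were at 19.7 and 6.55 and Il12b at 0. Of the 15 ACD Langerhans cells 6 had Ccl22 UMIs and 2 had Il12b UMIs. The mature dermal cells exceeded them in Ccl22 (2609) and Ccr7 (1355), having been chosen for the first of these.

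**Figure D5:**
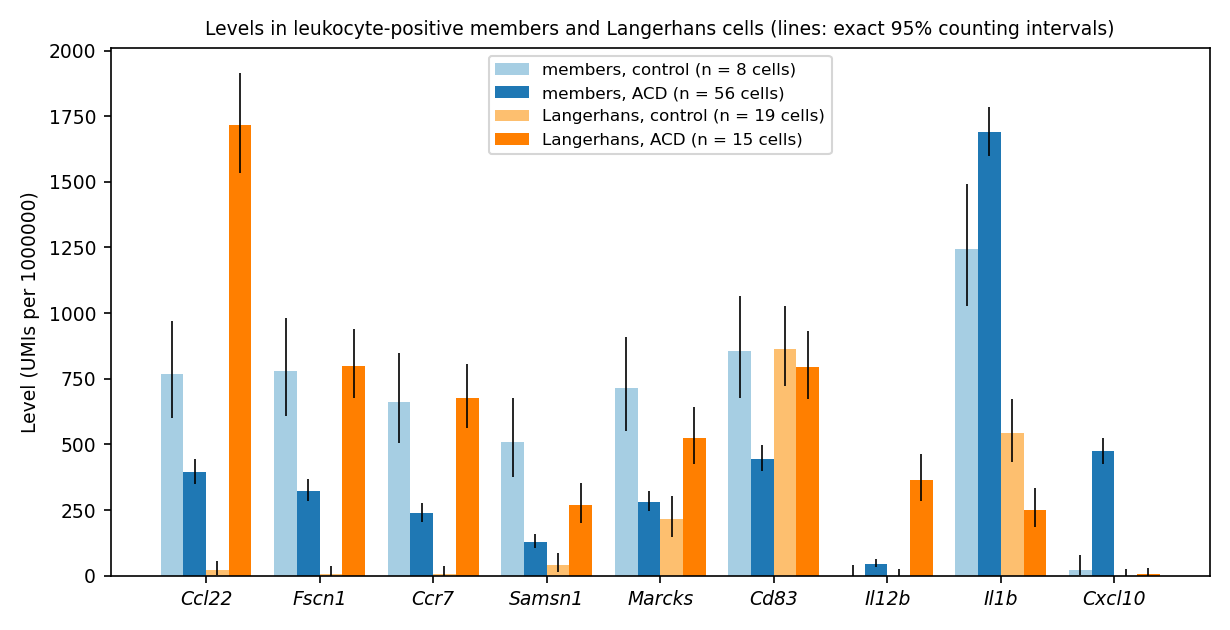
Bars give levels (UMIs per 1000000, from 0) of 9 genes in dermal dendritic cells and Langerhans cells of control and ACD, with exact 95% counting intervals as lines. Ccl22, Fscn1 and Ccr7 are higher in ACD than in control Langerhans cells and lower in ACD than in control dermal cells. The control dermal bars of these genes rest on few cells. All UMIs of Fscn1 (72) and Ccr7 (61) lay in 2 mature cells, and 69 of the 71 of Ccl22 in 1. Without the highest control cell, dermal log2 ratios with UMIs added were 3.56 for Ccl22 and -0.33 for Ccr7. Without mature cells they were -0.35 and 2.44, so both directions turned with the cells left out. Cxcl10 is at 474 in ACD dermal cells and 5.36 in ACD Langerhans cells.

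Macrophages, taken by at least 10 UMIs over the C1q genes, numbered 11 in ACD. Of 2118 genes measured against them, 258 were at least 2-fold higher in dendritic cells (12.2%) and 128 lower (6.04%). Mature markers were higher in dendritic cells in 12 of 17 genes, and lysosomal and endocytic genes were lower in 16 of 22. Macrophages had higher levels of 3 inflammatory transcripts, with Cxcl9 at 2363 against 211, Il1b at 5256 against 1689.8 and Ccl5 at 2849 against 289. Few macrophages set these values, since 1 of the 11 held 70.1% of the 214 UMIs of Cxcl9 and 1 held 47.3% of the 258 of Ccl5. Ccl5 had a log2 ratio of -3.30 (-3.57 to -3.03) in dendritic cells over macrophages.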

How the data were processed

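The authors built 10x Chromium 3' libraries and aligned the reads to mm10 with Cell Ranger (3.1.0 per the submitters' processing notes), and deposited UMI counts per gene and barcode for 27998 genes, with no normalization. T cell receptor genes are missing from their annotation. No cluster labels of the authors were used. Barcodes were kept with over 200 but under 5000 genes, no more than 25000 UMIs (printed in the methods as a minimum and treated here as a maximum) and less than 8% mitochondrial UMIs.

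Counts were summed per group of cells and scaled to 1000000. Genes with at least 50 UMIs in a pair were compared with 10 UMIs per 1000000 added, and called at 2-fold. With 1 library per group there was no test and no SD. A group at 0 was taken at 3 UMIs for a bound, a set value that is not the limit of the exact interval. Python 3.11.15, numpy 2.4.6, scipy 1.17.1, pandas 2.3.3 and matplotlib 3.10.9 were used, and the calls were tested on simulated data. The simulated counts had no differences between cells, so they cannot show how far single cells set a call. In them 4.22% of 1945 unchanged genes were called, as were 48 of 50 genes made 4-fold higher. Of 50 genes made 4-fold lower 16 reached the UMI minimum, and of 50 made 8-fold lower 11 did. Doublets were not called. Named are the gate genes, the largest changes and most abundant genes of each list, and the 10 highest and 10 lowest ratios (for classes, the 15 highest and 10 lowest). Members and lists were chosen with earlier results of these data known, and the leukocyte split, its gene lists and the checks without single cells were added after seeing the data. Genes outside this rule, such as Relb and Batf3, were named after their values were seen. Alternatives changed the cell filter, gate limits, doublets, denominators, added UMIs, gene minimum, weighting, size factors and depth. Results for some genes are not reported here.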

Additional observations from a re-analysis of the deposited data

Results flagged for a closer look

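Among the barcodes that the cell filter removed, 77 of 1498 in ACD passed the gate (5.14%, 4.08 to 6.38), against 1 of 682 in control (0.147%, 0.00371 to 0.814). Of the 77, 11 were leukocyte-positive. They drew attention because these barcodes enter none of the comparisons above, only the alternative with all deposited barcodes, and the ACD share lay above that of control.

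Of the genes compared, 7 went in opposite directions between ACD and control in dermal dendritic cells and in Langerhans cells. With 1 library per condition this difference was not tested. All log2 ratios here have 10 UMIs per 1000000 added. Lower in dermal and higher in Langerhans cells were Fscn1 (-1.24 and 5.61), Ccr7 (-1.43 and 5.37), Samsn1 (-1.91 and 2.50) and Marcks (-1.31 and 1.24). Of these Fscn1 belongs to the gate of the dermal cells. Without mature cells the dermal values were 2.44 for Ccr7, -0.13 for Samsn1 and -1.31 for Marcks. Higher in dermal and lower in Langerhans cells were Il1r2 (1.69 and -1.01), Egr1 (1.67 and -1.40) and Cd3g (3.05 and -1.12). Without the highest ACD cell of the gene, the dermal values were 1.57 for Il1r2 and 1.01 for Egr1. Cd3g had 54 UMIs in the ACD dermal cells and 1 once cells with Cd3 UMIs were left out. The control side of Ccr7 was 61 UMIs in 2 dermal cells and 1 UMI in the Langerhans cells. That of Fscn1 was 72 UMIs in the same 2 mature cells and 1 UMI in the Langerhans cells.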

How the results depend on the processing

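No paired analysis was possible because the labels give no replicate numbers and each condition is 1 library, so no replicate could be left out either. The planned count and IFNγ median within Cd209a cells were not computed, since control held 5 such cells. The medians of 2 lists, the IFNγ-induced and the mature genes, were followed through these settings. None of these that was at least 1 in size changed sign. For leukocyte-positive members the mature median was under 1 in size, so this covers the IFNγ list alone there. The other lists were not followed. The mature share of the whole gate did change direction. It was lower in ACD than in control at the main setting (31.0% and 33.3%). With mature at 2 UMIs, or with a marker sum of at least 3 UMIs, it was higher in ACD. Single genes turned as well. Ccr7 turned from -1.43 to 2.44 without mature cells, and without their highest control cell H2-Eb1 turned from -0.61 to 2.24 and Ccl22 from -0.94 to 3.56 (log2 ratios with 10 added). Over the whole gate, 72 values stayed within their range and 30 moved, and over leukocyte-positive members 110 and 10. The range was the exact interval for a share, a fixed fold for a gene count and an interval from ranked genes for a median. For the 8 leukocyte-positive control members it ran from 3.19 to 65.1% (mature) and from 0 to 36.9% (Xcr1). Staying within so wide a range does not show that a share was stable.

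For the whole gate, all deposited barcodes gave an ACD share of 1.69% with 1436 genes higher and 523 lower, Cd74 at 10 UMIs a share of 1.89%, and a marker sum of 3 a share of 0.712% with 51.8% mature. Without likely doublets the share was 0.549%, Xcr1 cells 12.5%, and the counts 208 and 96. Thinning to 2000 UMIs gave shares of 0.0169% in control and 0.188% in ACD, 0% mature in control, 0% Xcr1 in ACD, and 35 higher and 7 lower. With cells holding Ptprc as the denominator the shares were 1.24% and 3.46%, with the members lacking leukocyte genes still in the numerator. No such share was computed for leukocyte-positive members. These numbered 8 in control and 56 in ACD, beside 971 and 4189 cells with Ptprc. Mature cells were 62.8% of ACD members at 2 UMIs and 11.7% at 5 UMIs. Adding 1 UMI raised the IFNγ median to 4.17. A minimum of 20 UMIs gave 1353 higher and 420 lower, and 200 UMIs 211 and 68. Leukocyte-positive members alone gave a share of 0.480%, 16.1% mature, 16.1% Xcr1, 208 higher and 67 lower.

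For leukocyte-positive members, thinning gave 0.0169% and 0.161% of cells, 0% mature in control, 0% Xcr1 in ACD, and 26 higher and 6 lower. A minimum of 20 UMIs gave 589 and 217, and 200 UMIs 30 and 7. The IFNγ median ranged from 1.21 to 2.27. Depth limits the control side, where 8 cells held 92434 UMIs.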
